A study of Homo sapiens with 6 samples.

Results

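The 10 genes described here encode chains of cell surface receptors for cytokines on epithelial cells: IL20RA, IL20RB, IL22RA1, IL10RB, IL6R, IL6ST, IL4R, IL13RA1, IL15RA and IFNGR1. They were the rows of the deposited gene table whose symbol equals 1 of these names, 10 of 61806 rows. The set was selected on the measured difference between the groups of this study, with IL20RB chosen by its large drop in transcript level, so the values of the 10 genes are given as a description, with no p-value. Where edgeR's calls of these genes are stated, nothing is read from them. All 10 passed the filter on low counts that was applied to the table.

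Receptors of this kind have no enzyme activity of their own. A cytokine brings together a pair of chains, or more, whose bound Janus kinases then phosphorylate each other, the receptor tails and transcription factors of the STAT family. The class II chains IL20RA, IL20RB, IL22RA1, IL10RB and IFNGR1 serve cytokines related to interferons and interleukin-10, and the class I chains IL6R, IL6ST, IL4R and IL13RA1 serve four-helix cytokines such as interleukin-6 and interleukin-4. IL15RA, which presents interleukin-15, is placed in neither class here. In epithelium, the interleukin-20 and interleukin-22 receptors are known for defence and repair responses.

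RNA-seq was run on HCT116, an established human colorectal carcinoma cell line grown in McCoy's 5A medium with fetal bovine serum. The group si-NC, 3 libraries labelled wildtype, received a control short interfering RNA, and the group si-STRIP2, 3 libraries labelled STRIP2 knockdown, received one against STRIP2, a component of the STRIPAK signalling complex. The time after transfection, the number of different short interfering RNAs and an added cytokine are not given in the sources used here. The labels do not state that the libraries were grown as separate cultures, so errors and p-values cover the spread between these libraries, which may be technical. Pairs of si-NC libraries differed more (chi-square of counts per degree of freedom 4.91 to 16.6) than pairs of si-STRIP2 libraries (2.14 to 2.26). Total counts were 17184963 to 21721218 per library. STRIP2 itself had 3.19, 3.77 and 3.81 FPKM in si-NC and 2.71, 2.53 and 2.58 in si-STRIP2, or 72.6% of the control mean (edgeR adjusted p = 1.62e-05). Of 8 markers of colorectal epithelium, 2 (VIL1 and LGALS4) stayed under 1 FPKM in every library, and the summed level of the list was 755 to 784 FPKM in si-NC libraries and 713 to 738 in si-STRIP2. The other 6 were tested, and 4 fell and 1 rose, against 27.0% lower and 27.8% higher of all tested genes. On the log2 scale, the junction genes CDH1 (-0.60, edgeR adjusted p = 1.57e-14) and CLDN7 (-0.44, edgeR adjusted p = 2.77e-11) fell. KRT18 (-0.18, edgeR adjusted p = 0.000278) and EPCAM (-0.11, edgeR adjusted p = 0.0248) fell by less. KRT19 rose (0.22, edgeR adjusted p = 1.85e-05), and KRT8 (-0.045) was not called. The part of these differences in the results that follow was not tested. All 8 leukocyte markers stayed under 1 FPKM, with sums of 0.36 to 0.65 FPKM over all libraries. The sums of 7 fibroblast and endothelial markers were 1.96 to 2.62 FPKM, nearly all of it COL1A1.

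Promoter windows of 5 chains are shown because the data turn on how these genes differ: the 3 chains that make up the interleukin-20 receptors, and 2 chains with differences smaller than that of IL20RB and larger than those of IL20RA and IL22RA1. IFNGR1 also had a difference in that range and is not shown. Each window runs from 250 bases before to 50 bases after a start annotated by RefSeq on GRCh38.p14, and is printed 5′ to 3′ on the strand of the gene. Capitals mark matches, on either strand, to any of 7 motifs: AP-1 (TGANTCA), CRE (TGACGTCA), STAT (TTCNNNGAA), the GC box (GGGCGG), the TATA box (TATAAA), the ISRE core (TTTC, any 2 bases, TTTC) and an ETS core (CCGGAAGT). The windows lie at chr3:136957733-136958032 (plus strand) for IL20RB, chr6:137044916-137045215 (minus) for IL20RA and chr1:24143091-24143390 (minus) for IL22RA1. Those of the other 2 chains lie at chr5:55994914-55995213 (minus) for IL6ST and chrX:118727356-118727655 (plus) for IL13RA1.
IL20RB: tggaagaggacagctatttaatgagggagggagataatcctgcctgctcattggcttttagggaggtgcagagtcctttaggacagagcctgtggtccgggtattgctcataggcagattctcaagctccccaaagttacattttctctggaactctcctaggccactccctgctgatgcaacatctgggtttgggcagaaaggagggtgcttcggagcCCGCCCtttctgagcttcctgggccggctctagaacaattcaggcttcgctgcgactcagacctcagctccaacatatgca
IL20RA: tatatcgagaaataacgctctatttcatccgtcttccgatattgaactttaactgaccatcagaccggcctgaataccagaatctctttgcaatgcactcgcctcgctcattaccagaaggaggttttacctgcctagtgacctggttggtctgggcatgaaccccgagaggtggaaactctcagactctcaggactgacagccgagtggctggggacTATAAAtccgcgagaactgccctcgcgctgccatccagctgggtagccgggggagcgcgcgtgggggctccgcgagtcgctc
IL22RA1: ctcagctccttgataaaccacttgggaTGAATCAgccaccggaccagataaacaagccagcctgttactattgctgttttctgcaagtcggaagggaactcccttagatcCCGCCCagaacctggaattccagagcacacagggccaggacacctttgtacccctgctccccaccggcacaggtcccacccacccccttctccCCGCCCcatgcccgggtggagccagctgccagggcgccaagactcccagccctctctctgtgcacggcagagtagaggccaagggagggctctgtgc
IL6ST: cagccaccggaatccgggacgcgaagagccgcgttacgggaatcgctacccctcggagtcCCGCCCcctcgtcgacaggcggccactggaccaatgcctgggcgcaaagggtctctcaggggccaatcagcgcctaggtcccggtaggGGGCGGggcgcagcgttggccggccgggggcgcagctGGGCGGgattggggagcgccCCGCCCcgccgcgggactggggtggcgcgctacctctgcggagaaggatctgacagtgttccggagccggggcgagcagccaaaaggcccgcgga
IL13RA1: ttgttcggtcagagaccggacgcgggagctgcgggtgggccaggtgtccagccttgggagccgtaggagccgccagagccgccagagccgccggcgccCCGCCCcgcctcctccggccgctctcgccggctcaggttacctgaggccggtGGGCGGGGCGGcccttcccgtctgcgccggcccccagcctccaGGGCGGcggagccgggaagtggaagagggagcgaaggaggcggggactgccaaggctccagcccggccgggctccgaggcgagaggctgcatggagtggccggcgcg

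Positions count from the RefSeq start, whose last base before it is -1. The window of IL20RB held a single match, a GC box on the opposite strand at -31 to -26. That of IL20RA held a TATA box at -32 to -27 and no GC box. That of IL22RA1 held an AP-1 match, TGAATCA, at -223 to -217, and GC boxes on the opposite strand at -140 to -135 and -47 to -42. IL6ST had 4 GC boxes and IL13RA1 had 4, with 1 base shared between a pair of those of IL13RA1, and no base was shared between different motifs. Among all 35116 windows of that length, 45.0% held a GC box, 11.5% a TATA box and 7.71% an AP-1 match. The other shares were 7.66% for STAT, 4.14% for the ETS core, 3.57% for the ISRE core and 1.85% for CRE. CpG dinucleotides numbered 6 in the window of IL20RB and 8 in that of IL22RA1, against 36 in IL6ST, 35 in IL13RA1 and a median of 14 over all windows. IL20RA, with 20, has a further RefSeq start whose window held 35. The windows of IFNGR1, which are not printed, held 29 and 25. Those of IL4R, IL6R and IL10RB, also not printed, held 42, 27 and 25. The chains thus differ widely in CpG, and whether this relates to their differences between the groups was not tested. One window of IL15RA, at 5, was below that of IL20RB, and the other windows of IL15RA held 27, 30 and 30. A match is a description of letters and not a binding site.

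In si-NC cells the levels per exon length spanned a wide range. IL20RB (23.9 ± 1.70 FPKM), IFNGR1 (23.1 ± 0.216) and IL13RA1 (22.9 ± 0.520) stood at the top and overlapped one another (SD, n = 3 throughout). FPKM is the number of fragments per kilobase of exon, scaled to the library's total count, so that it can be compared between genes. IL6ST followed at 10.4 ± 0.447 FPKM, then IL4R at 5.52 ± 0.177, IL6R at 2.47 ± 0.165, IL15RA at 1.44 ± 0.123, IL22RA1 at 1.01 ± 0.241, IL20RA at 0.577 ± 0.129 and IL10RB at 0.350 ± 0.0265. From IL13RA1 down, no chain overlapped the next over the 3 libraries, with FPKM on the deposited exonic sizes. For IL10RB that size is larger than in the GENCODE 29 annotation (8025 against 4548 bases), so its last place may rest on the size used. In si-STRIP2 cells IL20RB took the fourth place, at 4.83 ± 0.418 FPKM, and overlapped IL4R at 4.68 ± 0.122. The order of the others was the same except that IL22RA1 and IL15RA traded places with overlapping values.

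**Figure D1:**
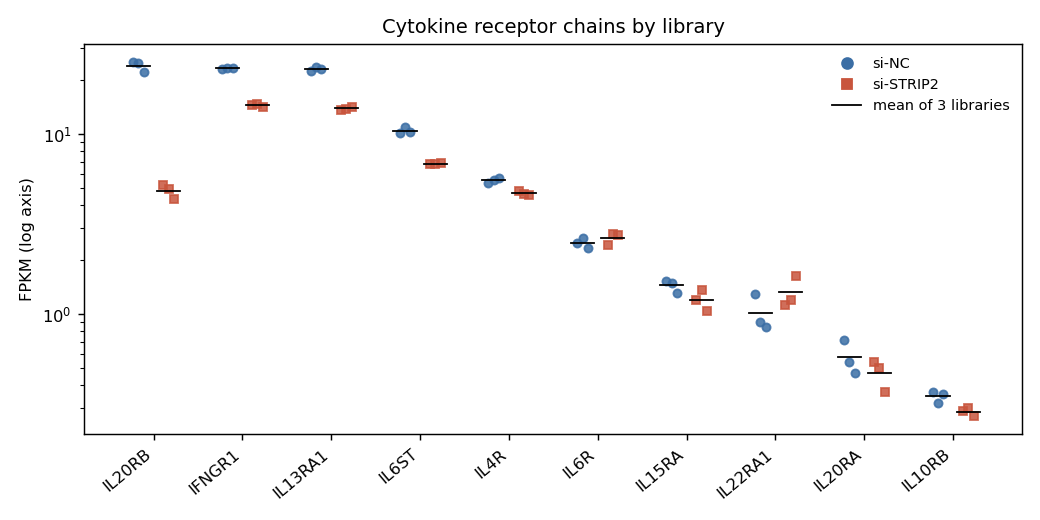
FPKM of the 10 receptor chains (log axis) in each of 3 si-NC libraries (circles) and 3 si-STRIP2 libraries (squares), with the mean of each group as a line. IL20RB drops from 22.0 to 25.1 FPKM to 4.37 to 5.19 FPKM, and the other chains differ by less.

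IL20RB encodes a chain shared by the receptors for interleukin-19, interleukin-20 and interleukin-24. Its FPKM was 25.1, 24.7 and 22.0 in the si-NC libraries and 5.19, 4.92 and 4.37 in the si-STRIP2 libraries. All si-STRIP2 libraries lay far below all si-NC libraries, and 20.2% of the control level remained. These values rest on 923 to 1334 counts per si-NC library and 184 to 238 per si-STRIP2 library. The log2 fold change fitted by edgeR was -2.31 (SE 0.0717), that is 4.97 times less in si-STRIP2. Of all 15687 tested genes, 0.198% had a lower log2 fold change. IL20RB was chosen by this drop, so nothing is read from its rank. In bulk RNA, fewer cells with a transcript and less of it per cell cannot be told apart.

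The span of IL20RB (ENSG00000174564, chromosome 3, 136946230 to 137011085, plus strand) meets 2 other genes. NCK1, which encodes an adaptor protein of tyrosine kinase signalling and lies upstream on the same strand, shares 5377 bases of span. Its counts came to 135% of those of IL20RB over the 6 libraries. In GENCODE 29 on GRCh38 the exons of both genes share 66 bases, 2.67% of the exonic bases of IL20RB, in an exon that lies upstream of the RefSeq start. That start is 11753 bases inside the deposited span. If NCK1 were read evenly over its exons, its level over 66 bases would equal 0.240 to 0.264 FPKM of IL20RB in si-NC and 0.210 to 0.222 in si-STRIP2. NCK1 had FPKM values of 9.68, 9.77 and 8.88 in si-NC and 8.20, 8.12 and 7.79 in si-STRIP2. Its log2 fold change was -0.24 (standard error 0.052, edgeR adjusted p = 0.000243). NCK1 was thus lower too, by a smaller log2 fold change than IL20RB. IL20RB-AS1, on the minus strand, held 1.09% as many counts and shares 37 exonic bases with IL20RB. Whether counting used strand is not given in the sources used here.

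**Figure D2:**
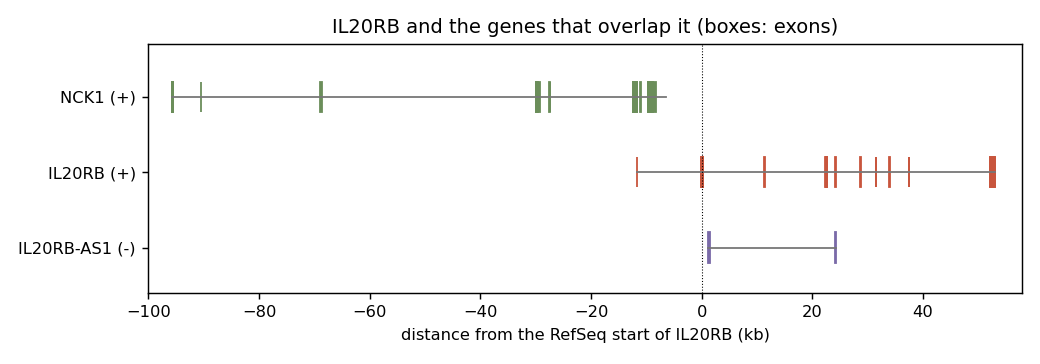
Map of IL20RB and the 2 genes that overlap it, with distance from the RefSeq start of IL20RB in kilobases on the horizontal axis; lines are the deposited gene spans and boxes are exons in GENCODE 29. The overlap with NCK1 is limited to the most upstream IL20RB exon, and that with IL20RB-AS1 to short stretches.

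IL20RB pairs with IL20RA in the type I interleukin-20 receptor and with IL22RA1 in the type II receptor. IL20RA (ENSG00000016402, chromosome 6, 136999971 to 137045180, minus strand) had FPKM values of 0.72, 0.54 and 0.47 in si-NC and 0.54, 0.50 and 0.37 in si-STRIP2. The groups overlapped, and its log2 fold change was -0.32 (SE 0.209). IL22RA1 (ENSG00000142677, chromosome 1, 24119771 to 24143140, minus strand), which also pairs with IL10RB as the interleukin-22 receptor, had 1.29, 0.90 and 0.85 FPKM in si-NC and 1.12, 1.20 and 1.63 in si-STRIP2. One si-NC library, replicate 1, stood among the si-STRIP2 values, and the log2 fold change was 0.34 (SE 0.192). Without that library it was 0.58, and edgeR called it at an adjusted p under 0.05, which it did not with all libraries. IL10RB (ENSG00000243646, chromosome 21, 33266367 to 33311420, plus strand) had 0.37, 0.32 and 0.36 FPKM in si-NC and 0.29, 0.30 and 0.27 in si-STRIP2. The groups did not overlap, and the log2 fold change was -0.32 with an SE of 0.191. These 3 chains rest on 30 to 79 counts per library, so that counting alone gives an error of up to 18.3% for a single value.

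The level of IL10RB is uncertain. A same-strand gene named only by its identifier, ENSG00000249624, shares 38.1% of the exonic bases of IL10RB in GENCODE 29, and reads in shared bases can go uncounted or to either gene. That gene held 31 counts over all libraries, and IL10RB 282. The deposited exonic size of IL10RB, 8025 bases, was also larger than the 4548 bases of GENCODE 29, and a larger size lowers FPKM.

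Ratios between chains also differed between the groups. The ratio of IL20RB to IL20RA in FPKM was 34.9, 45.7 and 46.8 in si-NC libraries and 9.61, 9.84 and 11.8 in si-STRIP2. The ratio of IL20RB to IL22RA1 was 24.3 ± 4.20 in si-NC libraries and 3.80 ± 1.01 in si-STRIP2. In both groups the shared chain was the more abundant transcript of each pair, by over 2-fold in every library. The ratio of IL22RA1 to IL10RB was 2.36 to 3.49 in si-NC libraries and 3.86 to 6.04 in si-STRIP2, without overlap. These ratios come from the contrast that chose IL20RB and are a description.

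**Figure D3:**
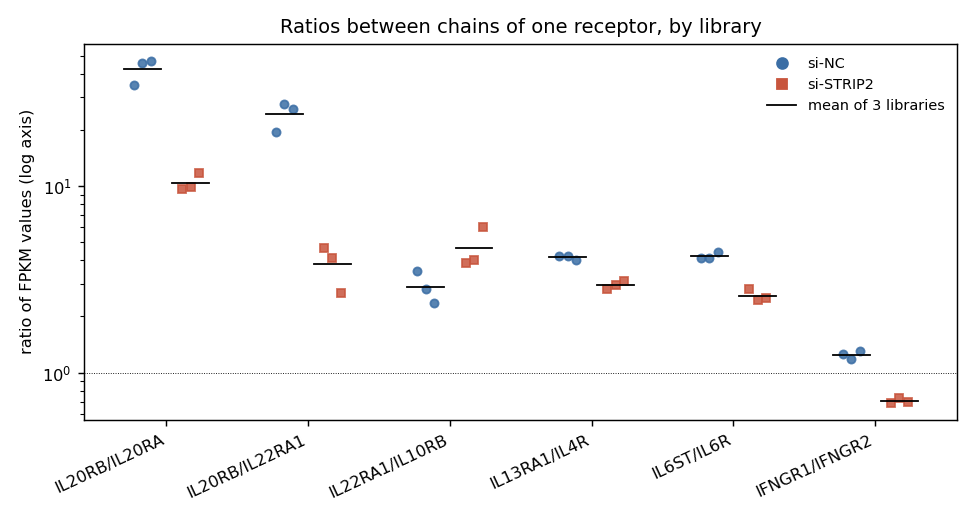
Ratios of FPKM between chains of the same receptor (log axis) in each si-NC library (circles) and si-STRIP2 library (squares), with group means as lines and a ratio of 1 dotted. IL20RB remained above IL20RA and IL22RA1 in all 6 libraries, and IFNGR1 went from above IFNGR2 to below it.

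IL6ST encodes gp130, the signalling chain shared by interleukin-6, interleukin-11, LIF and oncostatin M. Its FPKM (ENSG00000134352, chromosome 5, 55935095 to 55995022, minus strand) was 10.1, 10.9 and 10.2 in si-NC libraries and 6.79, 6.82 and 6.87 in si-STRIP2. The si-STRIP2 values had an SD of 0.0404 FPKM and all lay below si-NC, with a log2 fold change of -0.61 (SE 0.043). IL6R (ENSG00000160712, chromosome 1, 154405193 to 154469450, plus strand), the chain that binds interleukin-6, had 2.46, 2.64 and 2.31 FPKM in si-NC and 2.42, 2.77 and 2.75 in si-STRIP2. The groups overlapped, and the log2 fold change was 0.095 (SE 0.083). The ratio of IL6ST to IL6R went from 4.21 ± 0.170 in si-NC to 2.59 ± 0.189 in si-STRIP2.

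IL13RA1 and IL4R form the type II interleukin-4 receptor, which also binds interleukin-13 and is the form found outside blood cells. IL13RA1 (ENSG00000131724, chromosome X, 118727133 to 118794535, plus strand) had 22.5, 23.5 and 22.9 FPKM in si-NC and 13.5, 13.8 and 14.2 in si-STRIP2. The groups did not overlap, with a log2 fold change of -0.73 (SE 0.044). IL4R (ENSG00000077238, chromosome 16, 27313668 to 27364778, plus strand) had 5.33, 5.55 and 5.68 FPKM in si-NC and 4.81, 4.65 and 4.57 in si-STRIP2. Its groups did not overlap either, at a smaller log2 fold change of -0.24 (SE 0.063). The ratio of IL13RA1 to IL4R was 4.16 ± 0.116 in si-NC libraries and 2.96 ± 0.143 in si-STRIP2.

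IFNGR1 encodes the chain that binds interferon gamma. Its FPKM (ENSG00000027697, chromosome 6, 137197483 to 137219449, minus strand) was 22.9, 23.2 and 23.3 in si-NC libraries and 14.5, 14.6 and 14.1 in si-STRIP2. The groups were far apart for their spread, with a log2 fold change of -0.69 (SE 0.046). Its partner IFNGR2 had 18.3, 19.6 and 17.8 FPKM in si-NC and 21.1, 20.0 and 20.2 in si-STRIP2, so that the ratio of IFNGR1 to IFNGR2 was 1.25 ± 0.0604 in si-NC libraries and 0.706 ± 0.0221 in si-STRIP2. IL15RA (ENSG00000134470, chromosome 10, 5943639 to 5978187, minus strand) had 1.53, 1.49 and 1.30 FPKM in si-NC and 1.20, 1.35 and 1.04 in si-STRIP2. These groups overlapped, at a log2 fold change of -0.28 (SE 0.146).

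Over the 10 chains, 5 were called lower in si-STRIP2 by edgeR at an adjusted p under 0.05 and 0 higher, where 54.8% of all tested genes were called, 27.0% lower and 27.8% higher. The 5 were IL20RB, IL13RA1, IFNGR1, IL6ST and IL4R, which are also the 5 with the most reads. The chains not called were IL20RA, IL22RA1, IL10RB, IL6R and IL15RA. Of the called, 1 changed by at least 2-fold, IL20RB, against 2.91% of tested genes called lower at that size. The groups did not overlap for 6 chains, all lower, where this held for 58.6% of tested genes, 28.7% lower and 30.0% higher. The median log2 fold change of the chains was -0.32, and that of all tested genes was 0.014. Since the contrast was in view when the chains were chosen, nothing is read from these counts.

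**Figure D4:**
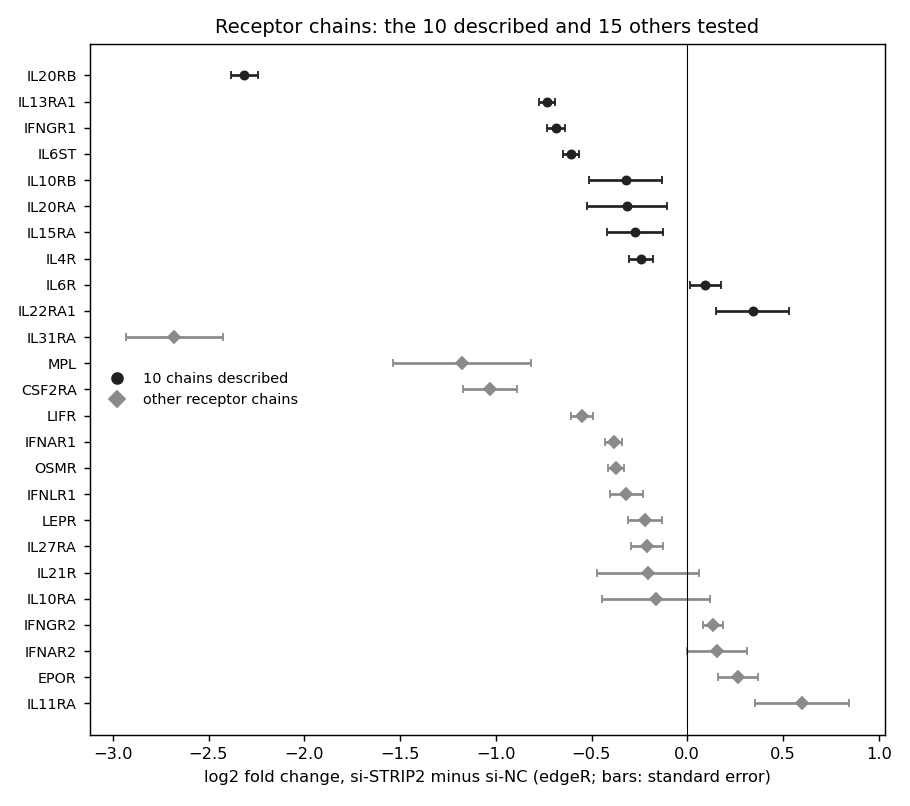
Log2 fold changes (si-STRIP2 minus si-NC, edgeR) with standard errors for the 10 chains described (circles) and 15 other tested receptor chains (diamonds). IL20RB at -2.31 and IL31RA at -2.68 stand apart from the other chains, which lie between -1.17 and 0.60.

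Several chains lie beside other receptor genes in the genome. IL31RA, the interleukin-31 receptor chain, ends 12240 bases from IL6ST on chromosome 5. Its counts were 74, 71 and 71 in si-NC and 15, 11 and 6 in si-STRIP2, so that its reads were few but the groups were far apart. Its log2 fold change was -2.68 (SE 0.253, edgeR adjusted p = 5.74e-11). IL20RA and IFNGR1 lie 152302 bases apart on chromosome 6, with no tested gene between them. IFNAR2, IL10RB, IFNAR1 and IFNGR2 are a cluster on chromosome 21, and IFNLR1 lies 11027 bases from IL22RA1.

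The nearest tested gene on either side of each chain lay 691 to 1050904 bases away. Around IL20RB, the long noncoding NCK1-DT (log2 fold change 0.48) and DZIP1L (0.47) rose (edgeR adjusted p = 0.0227 and 0.00623). The call of NCK1-DT was lost without si-NC 1 or 3 or without si-STRIP2 2 or 3 (0.42 to 0.48, edgeR adjusted p up to 0.0874), and by DESeq2 (adjusted p = 0.0853), and NCK1, which overlaps it, held 1621% as many counts. That of DZIP1L was lost without si-STRIP2 1 (0.37, edgeR adjusted p = 0.0575). Beside IL22RA1, MYOM3 fell by 0.30 on the log2 scale and lost its call without si-NC 1 (-0.24, edgeR adjusted p = 0.0609) and under both limma settings (adjusted p = 0.0675 and 0.0725). Beside IL13RA1, DOCK11 fell by 0.83 and lost its call without si-NC 1, si-STRIP2 1 or si-STRIP2 3 (-0.77 to -0.67, edgeR adjusted p 0.0621 to 0.0825) or by DESeq2 (adjusted p = 0.0610). ZCCHC12 had 0.28 and was not called. PEX7 beside IL20RA (-0.44), ATP8B2 (-0.37) and UBE2Q1 (-0.18) beside IL6R were lower, and NSMCE1 beside IL4R (0.15) was higher. FBH1 beside IL15RA was called at 0.12, a call lost under 11 of 14 alternatives, among them DESeq2, limma and edgeR without si-NC 1 or 3 or si-STRIP2 1 or 2 (adjusted p 0.0512 to 0.187 over the 11). RBM17 (0.040), IL21R (-0.21), RPL26P19 (0.055) and TNFAIP3 (-0.042) were not called. Of 2 further identifiers that overlap chains, ENSG00000264281 at IL6ST (-0.27) was not called by edgeR with all libraries but was under both limma settings (adjusted p = 0.0433 and 0.0447). ENSG00000232807, which overlaps 2262 bases at one end of IL15RA (0.89), was called, and lost the call under 10 of 11 alternatives, among them DESeq2 and edgeR without any library but si-NC 2 (adjusted p 0.0517 to 0.189 over the 10). FBH1, which overlaps it, held 9492% as many counts.

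Of 6 other class II receptor chains, 5 were tested, 2 fell and 1 rose, against the 27.0% and 27.8% of all tested genes. IFNAR1, of the type I interferon receptor, went from 6.08 to 4.67 FPKM (-0.38 ± 0.045 SE on the log2 scale, edgeR adjusted p = 7.24e-09). IFNLR1, of the interferon lambda receptor, had -0.32 (edgeR adjusted p = 0.00232). IFNGR2 rose by 0.14 on the log2 scale (edgeR adjusted p = 0.0250), a call lost without si-NC 1 or 3 or si-STRIP2 1 or 3 (0.11 to 0.14, edgeR adjusted p 0.0552 to 0.0954), by DESeq2 (adjusted p = 0.0939) and with no filter on low counts (edgeR adjusted p = 0.0656). Overlapping TMEM50B held 94.7% as many counts. IFNAR2 had 0.15 and IL10RA -0.16, neither called.

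Of 27 other chains listed here with class I, 10 were tested, 7 fell and 2 rose, against 27.0% and 27.8% of all tested genes. IL31RA had the lowest value. LIFR, the LIF receptor that pairs with IL6ST, had 3.46, 3.65 and 3.61 FPKM in si-NC and 2.48, 2.32 and 2.54 in si-STRIP2 (-0.55 ± 0.059 SE on the log2 scale, edgeR adjusted p = 8.98e-10). OSMR, which pairs with IL6ST for oncostatin M and with IL31RA for interleukin-31, fell by 0.37 on the log2 scale (edgeR adjusted p = 2.89e-09), and overlapping RICTOR held 62.3% as many counts. CSF2RA, a chain of the GM-CSF receptor, fell by 1.03 (edgeR adjusted p = 1.79e-07). The median of the 10 was -0.30. With si-NC 2 or si-STRIP2 1 left out, or by DESeq2, 5 were called. The 17 not tested, among them IL2RG and IL7R, had at most 12 counts in a library.

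Ligands of these receptors were scarce. Of 22, 16 were not tested and had at most 3 counts in any library. The 6 genes IL10, IL19, IL20, IL22, IL24 and IL26 had 5 counts in all over the 6 libraries. Of the 6 tested ligands, 1 fell and 1 rose, against 27.0% and 27.8% of all tested genes. LIF rose from 6.41, 5.58 and 6.91 FPKM to 10.2, 8.36 and 8.55 (0.52 ± 0.076 SE on the log2 scale, edgeR adjusted p = 6.31e-07). CLCF1, a ligand of the ciliary neurotrophic factor receptor, had -0.42 (edgeR adjusted p = 0.00424), and overlapping RAD9A held 242% as many counts. IL15, the ligand of IL15RA, had 0.27 to 0.43 FPKM in all libraries and was not called.

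Of 10 Janus kinase and STAT genes, 9 were tested, 4 fell and 3 rose, against 27.0% and 27.8% of all tested genes, with a median of -0.11. JAK1, a kinase of the interleukin-6, interleukin-4 and interferon gamma receptors, went from 12.3, 13.2 and 12.3 FPKM to 9.82, 9.36 and 9.83 (-0.39 ± 0.041 SE on the log2 scale, edgeR adjusted p = 9.98e-10). JAK2 fell by 0.35 on the log2 scale, STAT3 by 0.24 and STAT4 by 0.73, with an edgeR adjusted p of at most 0.000254. STAT5B rose by 0.53 (edgeR adjusted p = 0.000290), from 0.58 to 0.76 FPKM in si-NC to 0.82 to 1.18 in si-STRIP2. STAT2 and TYK2 both rose by 0.17. The call of STAT2 was lost without si-NC 2 or si-STRIP2 1 (0.12 to 0.14, edgeR adjusted p 0.0887 to 0.122), by DESeq2 (adjusted p = 0.0595) and under both limma settings (adjusted p = 0.0660 and 0.0638). That of TYK2 was lost without si-NC 1 or 2 or si-STRIP2 1 or 2 (0.11 to 0.14, edgeR adjusted p 0.117 to 0.187), by DESeq2 (adjusted p = 0.108), under both limma settings (adjusted p = 0.143 and 0.141) and where at least 1 FPKM was required (edgeR adjusted p = 0.0673). STAT6, the factor of the interleukin-4 receptor, had 7.23 to 8.71 FPKM in si-NC and 7.47 to 8.06 in si-STRIP2 and was not called, nor was JAK3 (-0.11). STAT5A had at most 2 counts. Overlapping genes held 97.2% as many counts as STAT6 and 44.6% as many as JAK1.

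Of 20 genes listed as negative regulators of these receptors, all tested, 12 fell and 3 rose, against 27.0% and 27.8% of all tested genes. Whether each of them acts as an inhibitor in these cells was not tested. SOCS6, of the suppressor of cytokine signalling family, had 41.9, 44.4 and 42.4 FPKM in si-NC and 24.5 to 25.3 in si-STRIP2 (-0.79 ± 0.040 SE on the log2 scale, edgeR adjusted p = 9.88e-18). ADAM17, the protease that sheds IL6R from the cell surface, fell by 0.66 on the log2 scale, and SOCS7 by 0.43 (edgeR adjusted p = 1.83e-14 and 4.74e-10). Genes overlapping ADAM17 held 18.6% as many counts. PIAS4, an inhibitor of activated STAT proteins, rose from 5.14, 5.08 and 4.89 FPKM to 8.04, 7.70 and 7.71 (log2 fold change 0.63, edgeR adjusted p = 3.00e-09). The median of the 20 was -0.19.

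Genes known to respond to these cytokines did not move one way throughout, and the lists share some genes. Of 22 STAT3 targets, 19 were tested, 9 fell and 3 rose, against 27.0% and 27.8% of all tested genes, with a median of -0.16. VEGFA, the vascular growth factor (-0.78), HIF1A, the hypoxia factor (-0.59), and MYC (-0.22) were lower, and so was the adhesion molecule ICAM1 (-0.71), with an edgeR adjusted p of at most 1.54e-05. SOCS3, the feedback inhibitor of IL6ST, had -0.11 and was not called.

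Of 19 interferon gamma response genes, 10 were tested, 7 fell and 0 rose, against 27.0% and 27.8% of all tested genes, with a median of -0.42. Beside ICAM1, CD274, which encodes PD-L1, fell from 1.88, 1.66 and 1.76 FPKM to 0.71, 0.93 and 1.03 (edgeR adjusted p = 4.81e-07). GBP2, a guanylate-binding protein, had 14 to 22 counts in si-NC and 2 to 3 in si-STRIP2 (edgeR adjusted p = 4.90e-06). TAP1, a peptide transporter of antigen presentation, fell by 0.29 on the log2 scale (edgeR adjusted p = 0.000739). The 9 that were not tested, CXCL9 and IDO1 among them, had at most 18 counts in a library.

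Of 20 genes of the interleukin-20 and interleukin-22 response, 15 were too low to test, with at most 19 counts in a library. Of the other 5, 2 fell and 1 rose, against 27.0% and 27.8% of all tested genes. LCN2 (-3.87, edgeR adjusted p = 2.70e-18) and FUT2 (-0.78, edgeR adjusted p = 4.29e-07) fell. LCN2 encodes lipocalin 2, the gene named in the title of the series, and FUT2 a fucosyltransferase of the mucosa. MUC1, a membrane mucin, rose by 0.79 on the log2 scale (edgeR adjusted p = 0.00514), a call lost without si-NC 2 (0.55, edgeR adjusted p = 0.0575).

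The annotation in the deposited table gives wider lists, to be set beside 27.0% lower, 27.8% higher and a median of 0.014 over all tested genes. Of the 111 other tested genes under its JAK-STAT signaling pathway term, 46 (41.4%) fell and 24 (21.6%) rose, with a median of -0.17. Of the 120 under cytokine-cytokine receptor interaction, 50 (41.7%) fell and 26 (21.7%) rose, with a median of -0.21. All 10 chains carry both terms and were left out of these counts.

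**Figure D5:**
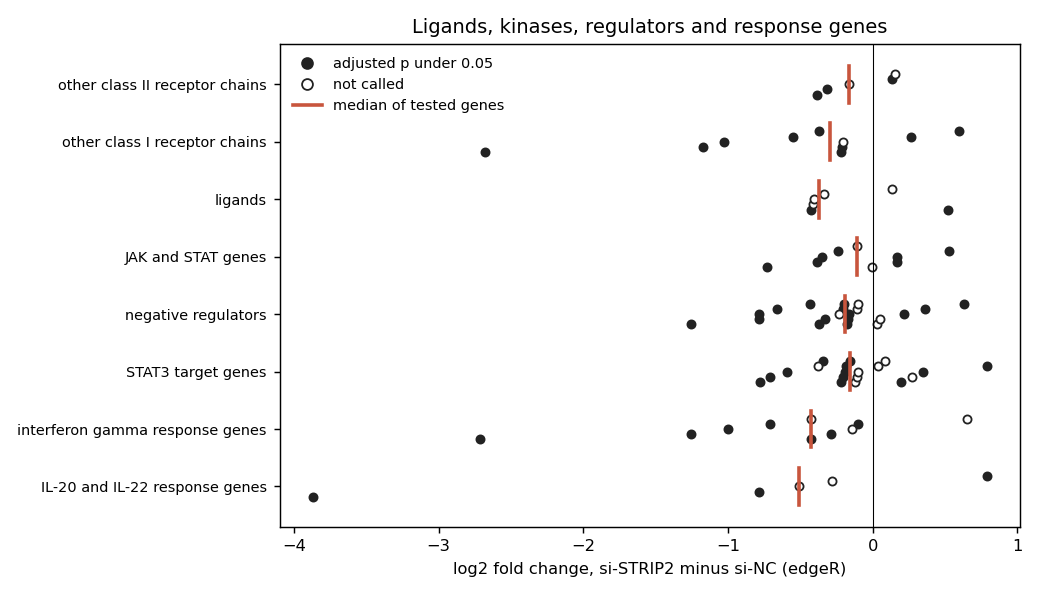
Log2 fold changes (si-STRIP2 minus si-NC, edgeR) of the tested genes of 8 lists, filled where the adjusted p was under 0.05 and open where not, with each list's median as a line. Every list has a median below 0, and 7 of the 8 lists hold called genes on both sides of 0.

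Genes with a pattern like that of IL20RB over the 6 libraries were sought among tested genes with a symbol and a mean of at least 1 FPKM. The most alike were LAMP3, HKDC1, ARG2, RAET1L and LURAP1L. Likeness was the root mean square difference of log2 CPM, centred on the si-NC mean, and was 0.13, 0.14, 0.15, 0.16 and 0.18 for these genes. All points share the same 6 libraries and the same contrast, so the likeness is a description. LAMP3, a lysosomal membrane protein, had 7.80 FPKM in si-NC and 1.75 in si-STRIP2, and HKDC1, a hexokinase relative, 4.64 and 0.99. ARG2, the mitochondrial arginase, had 8.89 and 1.96 FPKM, but overlapping VTI1B held 605% as many counts. RAET1L, a ligand of the NKG2D receptor, had 3.39 and 0.72 FPKM, and LURAP1L 11.1 and 2.53. Their log2 fold changes lay between -2.23 and -2.14.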

How the data were processed

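Messenger RNA was measured in 6 libraries of HCT116 cells. Per the labels' protocols, poly(A) RNA was selected and directional libraries were made. Per the submitters' processing notes, which give no roles, the tools were bcl2fastq 2.20.0.422, FastQC 0.10.1, cutadapt 1.9.1, HISAT2 2.2.1 and HTSeq 0.6.1, with build GRCh38.p13. The annotation release and strand setting are not given in the sources used here. The authors deposited a raw count and an FPKM value per gene and library. Deposited FPKM differed from counts scaled by the deposited exonic size and column total by at most 0.005.

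Counts were tested in R 4.3.3 with edgeR 4.0.16: genes were filtered by filterByExpr (minimum count 10), scaled by TMM and compared by group alone in a 2-sided quasi-likelihood test, with Benjamini-Hochberg adjustment over 15687 genes. SE was derived from the size of the log2 fold change and the F statistic. On simulated counts for these 15687 genes, 76% of 50 genes changed 1.5-fold, 82% at 2-fold, 100% at 4-fold and 100% at 8-fold were recovered and 5.29% of calls were false. The simulation changed 200 genes, with rises at 1.5-fold and 4-fold and falls at 2-fold and 8-fold, so size and direction were not separated. All its genes had a single common dispersion. In these data far more genes, 8599, were called, so the rates may not hold for them. Alternatives were DESeq2 1.42.0, limma 3.58.1 on log2(FPKM + 1) and log2(FPKM + 0.1), other scaling and filters, a replicate block and each library left out. No batch is labelled. Depth limits low genes: a count of 0 allows up to 3 counts in a library, for counting error only.

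The members and lists were chosen with earlier results of these data known. Named genes are the 10 chains, STRIP2, overlapping and nearest tested genes, the Janus kinase and STAT genes of the list, the 4 called genes of smallest adjusted p in each list, and the 5 most like IL20RB. Other genes named (cell type markers, IL10RA, IL15, SOCS3 and genes that overlap a named gene or were not tested) were chosen after their values were seen. An item left out of the lists is not reported here. Exon overlaps are from GENCODE 29 on GRCh38 and promoters from RefSeq. The last 30 bases of all 15 promoter windows of the chains were found in GENCODE 29 transcripts of the same gene.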

Additional observations from a re-analysis of the deposited data

How the results depend on the processing

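Results were recomputed under 14 alternatives, or under 11 for genes not tested where at least 1 FPKM was required in 3 libraries (IL20RA, IL10RB and some of the other named genes, IL31RA, GBP2, MUC1, STAT5B and JAK3 among them). IL20RB lay between -2.37 and -2.10 on the log2 scale and the number of chains called between 5 and 6. Of 134 values of the 10 chains, 133 kept their direction and side of the threshold. The other was IL22RA1 without si-NC replicate 1. For 56 other genes, 685 of 748 values kept both, 54 lost the call and 2 gained it.

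Called class I chains, 9 in the main test, were 5 by DESeq2, 5 under both limma settings, and 5 to 8 with a library left out. Janus kinase and STAT genes, 7 in the main test, were 4 under both limma settings. Interferon gamma response genes, also 7, were 4 under both limma settings and 4 with the filter of 1 FPKM. Fewer genes of these lists are tested under the filter of 1 FPKM, which limma also used, and beyond that the cause was not tested. On log2(FPKM + 1), which understates changes of low genes, LCN2 was at -2.37. The sign reversed for 7 values of genes that were not called: STAT6 (0.0020 and 0.0026 by limma, 0.0745 without si-NC 3, 0.0231 without si-STRIP2 3), RPL26P19 (-0.0413 without si-NC 3, -0.0205 without si-STRIP2 3) and TNFAIP3 (0.0664 without si-NC 3). With each library left out they ranged from -0.0617 to 0.0745, from -0.0413 to 0.1266 and from -0.1032 to 0.0664. The cause was not tested.

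With the replicate number as a block, 5 chains were called and 8293 genes in all, against 8599. Same-numbered libraries did not deviate together (r between -0.0858 and -0.0133 over 15687 genes), and 0 of 6 libraries correlated best with its own number. The highest r was 0.112, of si-NC 3 with si-STRIP2 1. Deviations were taken from means of 3 libraries, so these small correlations showed no pairing by number but cannot exclude it. With few reads, the changes of IL20RA, IL22RA1 and IL10RB could not be resolved below their SE of 0.191 to 0.209.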
